A study of Ceratina calcarata with 12 samples.

Results

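Highly methylated windows are the 200 bp stretches of the genome of the small carpenter bee Ceratina calcarata in which at least 60% of bisulfite reads were methylated. Windows were laid as a fixed grid on each scaffold. The deposited sites lack CpGs unmethylated throughout, so CpG numbers, spacings and levels here refer to the remaining sites. A window was considered if it held 2 to 9 of these CpG dinucleotides covered by 1 to 170 reads in all 6 bisulfite libraries. Its level is the number of methylated reads divided by all reads, summed over its CpGs and over the 6 libraries. This rule selected 5515 of 39224 windows with 2 to 9 CpGs (14.1%), out of 45303 windows with 2 or more CpGs. Because the level chose the windows, levels over all 6 libraries are given as a description without a test. Care and no care libraries entered that level together, so the difference between the groups was not used.

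The bees were newly eclosed adult females from wild nests in Rhus typhina stems, reared in the lab. In the care group the mother stayed in the nest until the offspring were adult. In the no care group the mother was taken away once the eggs had been provisioned with pollen, and pollen and eggs were left in place. Each group had 3 bisulfite libraries, each a pool of 9 heads from different nests, and 3 RNA libraries, each a pool of 3 heads. A whole head holds brain, muscle, gland and other cells, so a change in methylation within a cell type and a change in the mix of cell types cannot be told apart. Replicates are pools, so their spread does not show how single bees vary.

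In insects with DNA methylation the mark sits mostly on CpGs within the bodies of a subset of genes, largely on exons, and most of the remaining genome is unmethylated. Dnmt3 places the mark on new sites and Dnmt1 copies it to the new strand when DNA is replicated. Genes that carry it tend to be broadly and steadily expressed, and methylation within insect genes is not in general a mark of silencing.

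Levels ran down from a large class of weakly methylated windows without a second peak. Of the windows with 2 to 9 CpGs, 13465 lay below 10% and 2349 lay between 50% and 60%. Among the highly methylated windows, 2088 lay between 60% and 70%, 1836 between 70% and 80%, 1214 between 80% and 90%, and 377 at 90% or above. Their median level was 73.2%, with quartiles of 66.4% and 81.5%. The boundary at 60% therefore cut through a continuous distribution.

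**Figure D1:**
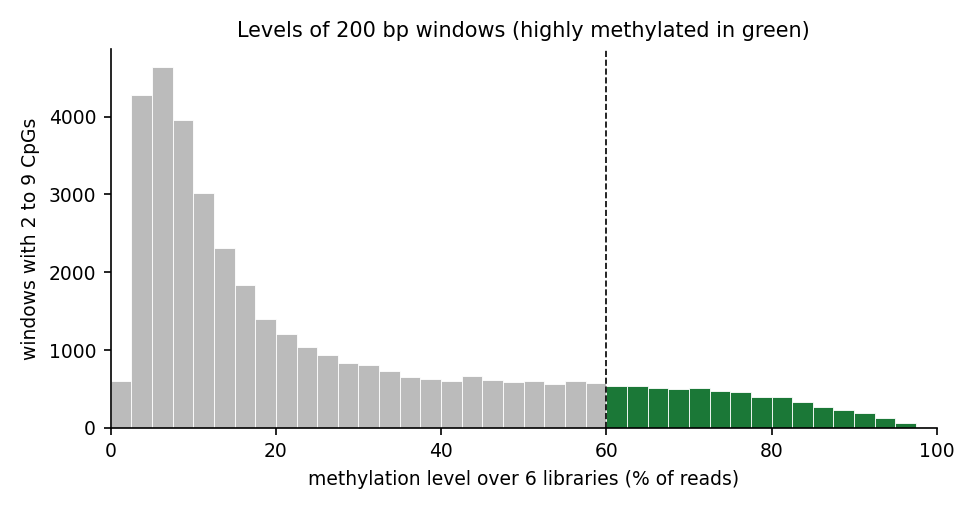
Number of windows with 2 to 9 CpGs (vertical axis) by methylation level over all 6 libraries (horizontal axis, percent of reads, in bins of 2.5 points). The dashed line marks 60%, and the 5515 windows at or above it are green. No gap separates them from the windows below.

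The windows nearest to the boundary show how little separates the 2 sides. On scaffold115.2 at bases 936601 to 936800, a window of 3 CpGs had a level of 60% over 140 reads and was included. On scaffold289.2 at bases 1002601 to 1002800, a window of 6 CpGs had 59.97% over 767 reads and was left out. Another on scaffold255.2 at bases 1089201 to 1089400, of 7 CpGs, had 59.97% over 602 reads. In the scaffold115.2 window single CpGs ranged from 5.26% to 95.3%, so that its level averaged methylated and nearly unmethylated sites.

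The top of the distribution held windows in which almost every read was methylated. Among windows with at least 6 CpGs, the highest level was 96.2%, in a window of 7 CpGs on scaffold154.2 at bases 596001 to 596200. Its levels were 100%, 92.0% and 100% in care replicates 1, 2 and 3 and 95.5%, 96.0% and 97.9% in no care replicates 1, 2 and 3, over 37 to 124 reads. The groups overlapped, and single CpGs lay between 94.9% and 97.5%. The next highest were windows on scaffold250.2 (bases 1161401 to 1161600, 95.3%), scaffold154.2 (bases 396401 to 396600, 94.0%) and scaffold250.2 (bases 348801 to 349000, 93.9%). Levels of 100% in all 6 libraries occurred in 4 windows.

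High levels were most frequent at intermediate numbers of CpGs. The share of windows that were highly methylated was 10.1% among windows with 2 CpGs, 17.2% with 4 CpGs and 12.1% with 9 CpGs. Of the 6079 windows with 10 or more CpGs, which the rule left out, 446 (7.34%) reached 60%. Within the highly methylated windows the median level fell from 77.4% with 2 CpGs to 67.9% with 9 CpGs. A mean over few CpGs reaches extreme values more readily, and levels at or above 90% were found in 16.5% of those with 2 CpGs and 0.448% of those with 9.

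Single CpGs within the windows were unevenly methylated. The 24548 CpGs of the highly methylated windows were 8.98% of the CpGs kept and held 19.0% of the methylated reads, from 6.14% of all reads. Their median level was 78.6%, with quartiles of 60% and 90%, against a median of 12.7% for CpGs of the other windows with 2 to 9 CpGs. At or above 80% lay 47.7% of them, against 2.74% of the CpGs in the other windows. A further 22.4% lay between 20% and 60%.

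The windows were thus rarely uniform. In 1893 of the 5515 (34.3%) every kept CpG was at or above 60%, and in 543 (9.85%) at least 1 kept CpG was below 20%. CpGs unmethylated throughout are missing from the deposited sites and do not enter these counts. The median distance between the lowest and the highest CpG of a window was 39.7 percentage points. Adjacent CpGs within a window differed by a median of 13.2 points. The spacing of CpGs hardly differed, with a median of 23 bp within highly methylated windows and 22 bp within the others.

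Highly methylated windows lay beside each other. A neighbouring window with 2 or more CpGs was present on 81.5% of their sides, against 66.9% of the sides of the other windows. Of these neighbours 44.8% were themselves highly methylated, against 9.13% of the neighbours of the other windows. The neighbours of highly methylated windows had a median level of 58.1% (quartiles 41.6% and 73.3%), and those of the other windows 15.9%. These levels come from the same libraries as the selection, and they are given as a description.

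Runs of adjacent windows were short. The 5515 windows formed 3501 runs, of which 2020 were a single window, 1021 were 2 windows long, 395 were 3 windows long and 59 were 4 windows long. Only 4 runs reached 5 windows and 2 runs reached 6 windows, or 1200 bp. In all, 63.4% of the highly methylated windows had a highly methylated neighbour.

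Within the longest runs, where the rule holds each window at 60% or above, the levels still varied. On scaffold305.2 the levels of the 6 windows from base 65001 to base 66200 were 78.2%, 64.2%, 74.8%, 76.2%, 75.1% and 86.0%. On scaffold297.2 the 6 windows from base 1337201 to base 1338400 had 83.2%, 74.8%, 68.2%, 68.7%, 69.1% and 72.4%. In neither run was a window called between care and no care, and the adjusted p-values of the logistic regression ranged upward from 0.304. The lowest belonged to the first window of the scaffold305.2 run. It had 60%, 73.5% and 72.2% in care and 90%, 83.3% and 81.3% in no care, on only 10 to 49 reads per library.

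The level around highly methylated windows fell and then rose again. The median level was 58.2% at 200 bp downstream in scaffold coordinates, 38.0% at 400 bp, 15.6% at 800 bp and 11.9% at 1200 bp. Around the other windows it was 17.0% at 1200 bp. Beyond that distance the median rose to 27.8% at 2000 bp and returned to 16.7% at 3000 bp. On the other side it was 28.4% at 2000 bp and 17.7% at 3000 bp. The share of windows that were themselves highly methylated followed the same course, with 3.22% at 800 bp, 21.2% at 2000 bp and 11.2% at 3000 bp. Around the other windows this share was 14% at 2000 bp. Since both sides count the same pairs of windows, the symmetry of that share is not a second observation. Between 3000 and 5000 bp no further peak appeared, with medians between 14.9% and 19.1%.

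**Figure D2:**
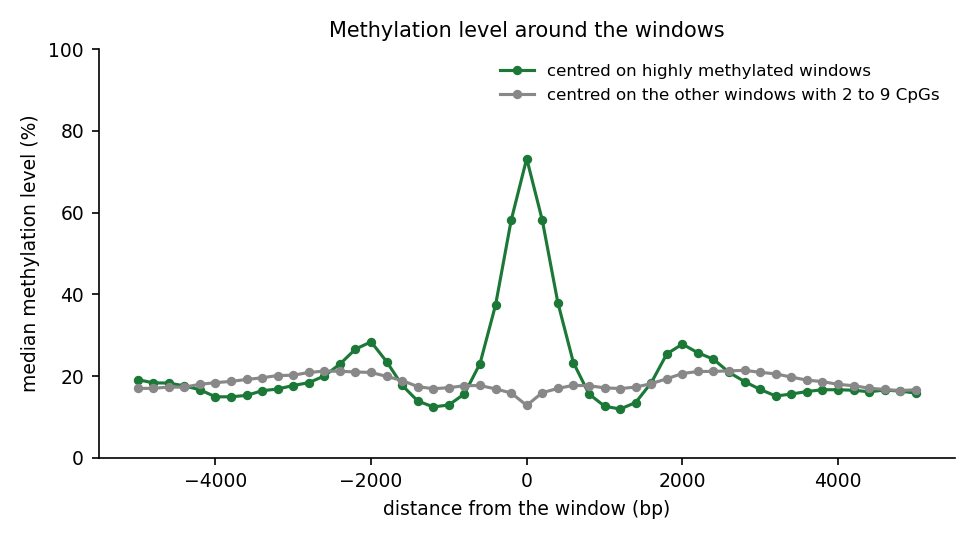
Median methylation level (vertical axis, percent) of windows at each distance (horizontal axis, bp, negative towards lower scaffold positions) from the 5515 highly methylated windows (green) and from the 33709 other windows with 2 to 9 CpGs (grey). The green line falls from 73.2% to 11.9% at 1200 bp and has a lower peak of 27.8% and 28.4% at 2000 bp on either side, while the grey line stays between 12.8% and 21.4%.

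Highly methylated windows were spread over the assembly. They lay on 355 of the 693 scaffolds with a window of 2 to 9 CpGs. Of the 110 scaffolds with at least 100 such windows, 109 held at least 1 that was highly methylated. The share per scaffold had a median of 14.6% and ranged from 0% of 144 windows on scaffold435.2 to 25.5% of 247 windows on scaffold147.2. The median distance to the next highly methylated window on a scaffold was 1600 bp, 45.3% of distances were within 1 kb and 21.5% exceeded 10 kb.

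The libraries were sequenced to different depths, and depth sets the precision of a window. A CpG was covered on average by 18.5, 33.8 and 18.1 reads in the care libraries, in replicate order, and by 26.6, 23.6 and 22.1 reads in the no care libraries. The median number of reads per highly methylated window was 35, 64 and 36 in care and 65, 58 and 48 in no care. At least 30 reads in every library were reached by 2749 of the 5515 windows. A level of at least 60% in each of the 6 libraries was found in 3520 (63.8%). Lambda DNA, added as an unmethylated control, gave 0.482% to 0.628% methylated reads.

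Repeat libraries differed slightly more than read sampling alone would give. The chi-square of the library counts around their group level, divided by its degrees of freedom, averaged 1.21 over the highly methylated windows and 1.37 over the other windows with 2 to 9 CpGs. Between pairs of libraries it was 1.18 to 1.27 for libraries of the same group and 1.22 to 1.45 for libraries of different groups. No pair therefore had to be treated as 1 library deposited a second time. The correlation of levels across windows was 0.481 to 0.633 within groups and 0.477 to 0.615 between groups, over windows of a restricted range of levels.

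One question of the study is whether methylation differs between bees reared with and without a mother. Over all highly methylated windows together the level was slightly lower in no care. It was 73.7%, 74.1% and 73.5% in care replicates 1, 2 and 3, and 72.4%, 71.5% and 72.3% in no care replicates 1, 2 and 3. The lowest care library was 1.06 points above the highest no care library, so the groups did not overlap. Care averaged 73.8% ± 0.349 and no care 72.1% ± 0.508 (SD, n = 3 each), a difference of -1.67 points. With each window given the same weight they were 75.1% ± 0.284 and 73.7% ± 0.389 (SD, n = 3 each). The 95% Wilson interval of care replicate 3, the lowest in care, was 73.3% to 73.6%, and that of no care replicate 1, the highest in no care, was 72.3% to 72.5%. Such intervals cover counting error only.

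Over all the other windows with 2 to 9 CpGs together, the level did not differ in this way. Care averaged 17.7% ± 0.234 and no care 17.8% ± 0.214 (SD, n = 3 each), the groups overlapped, and the difference was 0.0836 points. The median of their window differences was nevertheless -0.650 points, so that this median and the level over all their reads differ in sign. Within bins of the level, no care was lower in each bin. At 20% to 30% the difference was -0.753 points, and only in this bin did the groups overlap. Without overlap it was -0.257 points at 0% to 10%, -0.588 at 10% to 20% and -1.24 at 30% to 40%. At 40% to 50% it was -1.56 points and at 50% to 60% it was -1.53 points, again without overlap of the groups. A difference of this size was thus not confined to highly methylated windows.

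**Figure D3:**
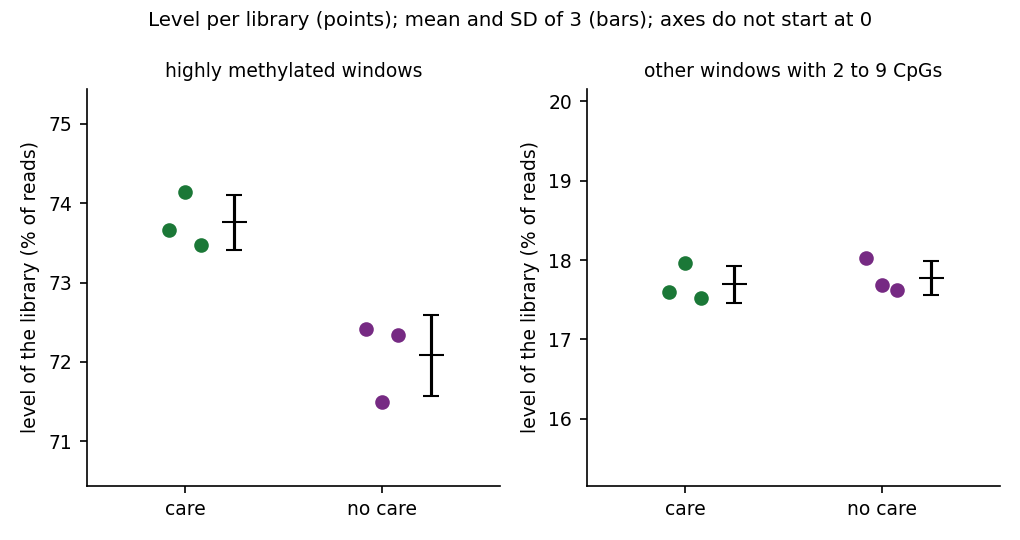
Level in each bisulfite library (vertical axis, percent of reads, axes of equal length that do not start at 0) for highly methylated windows (left) and the other windows with 2 to 9 CpGs (right), by group (horizontal axis). Points are libraries, and bars give the mean and SD of 3. For highly methylated windows the care libraries (73.5% to 74.1%) lie above the no care libraries (71.5% to 72.4%), and for the other windows the groups overlap.

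Some measures of the libraries moved with this difference. Coverage per CpG of highly methylated windows relative to that of the other windows was 0.754, 0.781 and 0.776 in care and 0.825, 0.805 and 0.795 in no care, without overlap. Unconverted lambda reads were also without overlap, at 0.559%, 0.521% and 0.628% in care and 0.512%, 0.510% and 0.482% in no care. The difference in means of the lambda reads was -0.0679 points. Among windows with at least 30 reads in every library, the difference in level was -1.82 points. The part of relative coverage in the result was not tested.

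Most single windows followed the same direction by a small amount. The level was higher in care in 3457 highly methylated windows (62.7%), higher in no care in 2045 and equal in 13. The median difference, no care minus care, was -1.63 points, beside -0.808 points over all 45303 windows, of which 26843 (59.3%) were higher in care. By level the median difference was -1.85 points at 60% to 70%, -1.84 at 70% to 80%, -1.43 at 80% to 90% and -0.881 at 90% or above. Of the 89 scaffolds with at least 20 highly methylated windows, 86 had a median below 0, with a range of -3.72 to 0.308 points.

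The difference was larger in deeper windows. With the highly methylated windows divided into 4 classes of equal size by read number, from the fewest reads to the most, the median difference was -1.03, -1.44, -1.77 and -1.99 points. It was -1.17 points in windows with 2 CpGs and -2.34 points in windows with 9 CpGs. CpG number and read number per window are linked, and their parts were not tested.

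The direction also showed in windows whose groups did not overlap. All 3 care levels exceeded all 3 no care levels in 516 highly methylated windows (9.36%), beside 7.85% of all windows tested. The reverse was found in 186 (3.37%), beside 3.82% of all windows. At an unadjusted p under 0.05 by logistic regression there were 616 highly methylated windows, 491 of them higher in care. This is 11.2% of them, beside 14.1% of all windows.

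**Figure D4:**
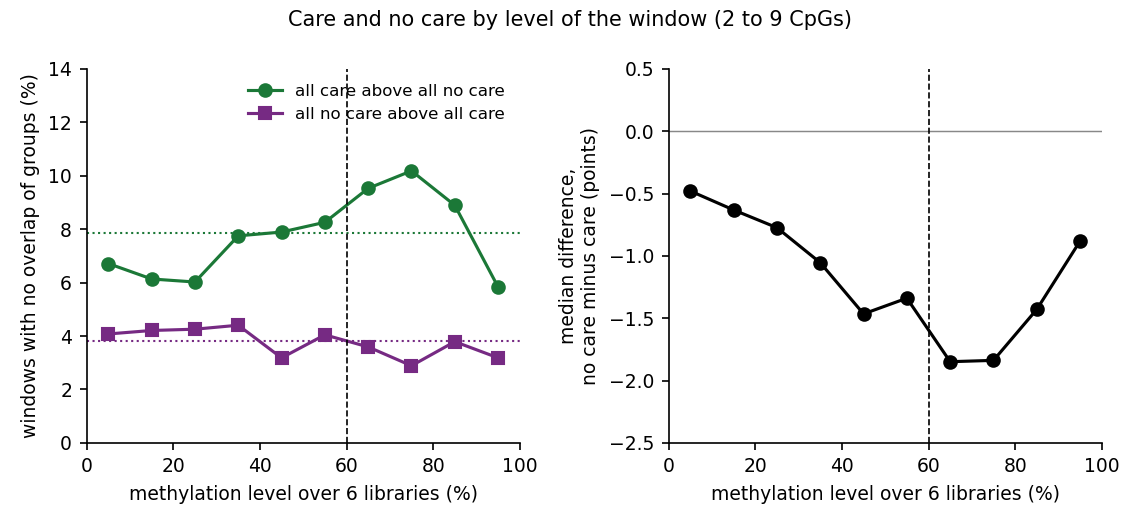
Left, percent of windows with 2 to 9 CpGs whose groups do not overlap (vertical axis) by level over 6 libraries (horizontal axis, percent, bins of 10 points), with all care above all no care libraries in green and the reverse in purple. Dotted lines give the shares over all windows tested (7.85% and 3.82%). Right, median difference of the windows, no care minus care, in percentage points. The dashed line marks 60%, and the share higher in care reaches 10.2% at 70% to 80% and is 5.84% at 90% or above.

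Single windows were compared by a logistic regression of methylated and unmethylated reads on the group, the default of MethylKit, the tool named in the study's methods. P-values were adjusted by Benjamini-Hochberg over all 45303 windows, and calls required an adjusted p under 0.01 together with a difference above 5 points. Of the 5515 highly methylated windows 10 (0.181%) were called, beside 0.32% of all windows tested (145). Among the other windows with 2 to 9 CpGs 62 (0.184%) were called, and among windows with 10 or more CpGs 73 (1.20%). The latter had a median of 371 reads per library, against 50 in the highly methylated windows. The highly methylated windows were thus called no more often than windows at large, and about as often as the other windows with 2 to 9 CpGs. All 10 were higher in care, beside 0.267% of all windows called in that direction (121 windows). In each of the 10 the 3 care levels lay above the 3 no care levels, and the differences were 9.61 to 27.5 points. The 10 windows lay on 10 scaffolds.

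The called window with the smallest p lay on scaffold568.2 at bases 314201 to 314400 and held 6 CpGs. Its level was 69.0%, 73.2% and 80.4% in care replicates 1, 2 and 3, and 57.1%, 58.3% and 61.5% in no care replicates 1, 2 and 3, on 87 to 179 reads per library. All care libraries lay above all no care libraries. The means were 74.2% ± 5.77 and 59.0% ± 2.25 (SD, n = 3 each), the pooled reads of the groups differed by -15.4 points, and the adjusted p of the logistic regression was 0.00315. The 95% Wilson intervals of care replicate 1 (58.6% to 77.7%) and no care replicate 3 (53.1% to 69.3%) overlapped.

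On scaffold525.2, the window at bases 921601 to 921800 held 9 CpGs. Its level was 74.1%, 75.8% and 70.7% in care, and 57.0%, 66.2% and 68.0% in no care, on 197 to 380 reads per library. The highest no care library came within 3 points of the lowest care library. The difference was -10.4 points (adjusted p of the logistic regression 0.00372), and without no care replicate 1 it was -6.90 points (adjusted p 0.159).

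On scaffold90, the window at bases 391801 to 392000 held 6 CpGs, each between 75.8% and 93.5% methylated. Its level was 83.8%, 91.1% and 92.7% in care, and 80.4%, 79.8% and 79.8% in no care, on 123 to 293 reads per library. The no care libraries were close together, while care replicate 1 lay nearer to them than to the other care libraries. The difference was -9.61 points (adjusted p of the logistic regression 0.00404).

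The other 7 called windows are named after their values were seen. The largest difference, -27.5 points, was on scaffold363.2 at bases 1020201 to 1020400, in a window of 3 CpGs. Its level was 95%, 90.7% and 90% in care and 67.7%, 66.7% and 57.6% in no care. It rested on 10 to 45 reads per library, the fewest of the called windows, and a 95% Wilson interval on care replicate 3 ran from 59.6% to 98.2%. Windows of 4 to 9 CpGs on scaffold121.2, scaffold98.2, scaffold151.2, scaffold351.2, scaffold358.2 and scaffold71 differed by -10.0 to -19.5 points. Of the 10 called windows 3 were at or above 60% in all 6 libraries.

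**Figure D5:**
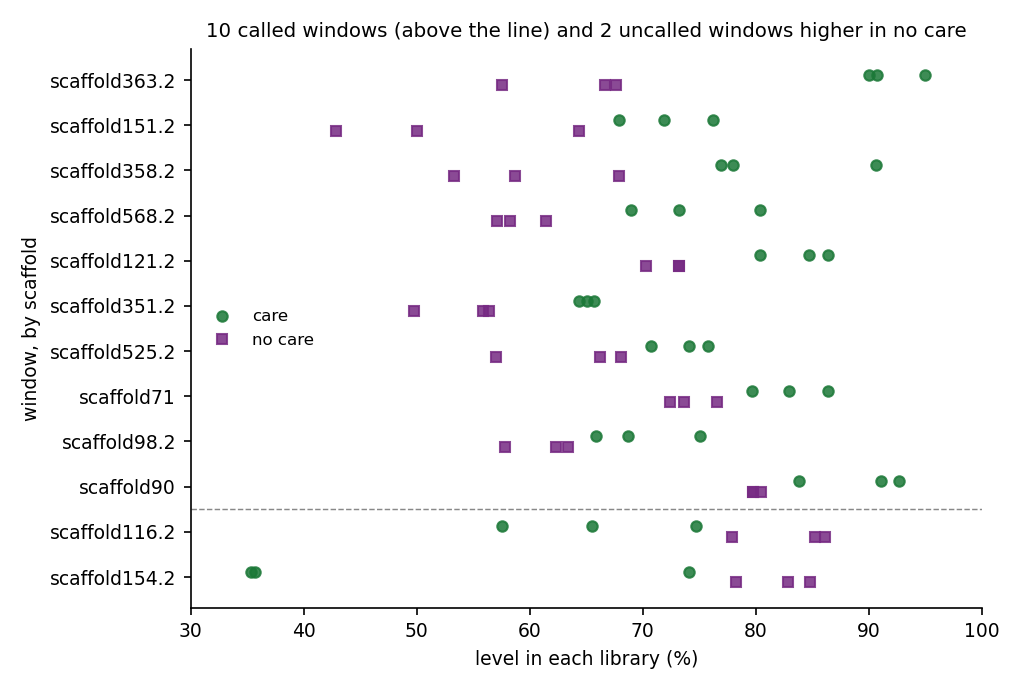
Level in each library (horizontal axis, percent, starting at 30%) for the 10 called highly methylated windows (above the dashed line) and for 2 uncalled windows that were higher in no care (below it), each named by its scaffold. Green circles are care and purple squares are no care libraries. In the called windows each care library is above each no care library.

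The windows beside the called windows did not pass the test. Of 17 neighbours with 2 or more CpGs none was called, and 3 had an unadjusted p under 0.05 by the logistic regression, each lower in no care. In all, 13 of the 17 were lower in no care, with differences from -8.02 to 5.66 points and a median of -3.10 points. Of the 17 neighbours 6 were themselves highly methylated. On scaffold351.2, the highly methylated window after the called one differed by -6.58 points (adjusted p of the logistic regression 0.0756).

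In the other direction no highly methylated window was called in the main test. The smallest p belonged to a window of 5 CpGs on scaffold116.2 at bases 284401 to 284600. Its level was 57.6%, 65.5% and 74.7% in care and 86.2%, 85.3% and 77.9% in no care, a difference of 15.0 points (adjusted p of the logistic regression 0.0122). The next, of 4 CpGs on scaffold154.2 at bases 262001 to 262200, had 35.3%, 74.1% and 35.7% in care and 84.8%, 78.3% and 82.9% in no care (28.4 points, adjusted p 0.0150). Its groups did not overlap either, but 2 of the care libraries rested on 17 and 14 reads. Care replicate 2, with 27 reads, lay far from the other care libraries.

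The calls rest on a test that counts reads as independent draws. None of the 10 was called when the spread between libraries entered the test, with the smallest adjusted p at 0.0772 for 1 overdispersion over all windows and 0.726 for limma. Leaving out care replicate 2 or no care replicate 2 left 2 calls each, of which 0 and 1 were among the 10, while calls over all windows fell from 145 to 50 and 66. Leaving out care replicate 1 left 6, of which 4 were among the 10, and 128 over all windows. The scaffold568.2 window lost its call without care replicate 2 or 3 or no care replicate 1 or 2 (adjusted p up to 0.0461). The scaffold525.2 window lost it without care replicate 1 or 2 or no care replicate 1 (up to 0.159), and the scaffold90 window without any library other than care replicate 1 (up to 0.153).

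Spread between libraries was large in some windows that were not called. Among highly methylated windows with at least 30 reads in every library, the largest SD over the 6 libraries, 13.8 points, was in a window of 5 CpGs on scaffold433.2_split_1 at bases 3801 to 4000. Its level was 75%, 61.8% and 50% in care and 52.8%, 64.9% and 86.7% in no care. The groups overlapped widely, and the difference was 3.03 points (adjusted p of the logistic regression 0.880). The second largest, 13.7 points, was in the called window on scaffold358.2 at bases 177601 to 177800.

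Gene models could be placed for a small stretch of the genome. Positions of 823 gene models on scaffold39.2, scaffold78.2 and part of scaffold48.2 were taken from the study's annotation, as were the symbols of Drosophila genes matched to 339 of them. Exons and strand were not at hand, and a window was assigned to each model that contained its centre. Gene roles named here are those known from Drosophila or from proteins conserved across animals. None of the 10 called windows lay in this stretch.

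Highly methylated windows were nearly all within gene models, in a stretch mostly covered by them. Of 322 highly methylated windows there, 315 (97.8%) lay within a model, against 93.7% of the other windows with 2 to 9 CpGs, while models covered 87.6% of the stretch. Overlapping models shared 81 of these windows. Of the 823 models 202 (24.5%) held at least 1 highly methylated window, and 99 of these held exactly 1. Models matched to a Drosophila gene held one in 164 of 339 cases (48.4%), and models without a match in 38 of 484 (7.85%). Any window with 2 to 9 CpGs was present in 388 models, of which 272 were matched. Most models without a match thus held no such window.

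Gene groups differed in how many of their members held a highly methylated window. Of 18 models for the ribosome and translation 13 held one, among them RpL12 and RpL4 (large ribosomal subunit), pAbp (poly(A)-binding protein) and the aminoacyl-tRNA synthetases TyrRS and MetRS. Of 12 models for splicing and RNA processing 7 held one, including SF2, noi and Tgs1. Of 10 models for vesicle traffic 8 held one, including Rab7 (late endosome) and Vps45. Of 12 models for photoreception and neurotransmission 2 held one, the potassium channel Shab and the vesicular monoamine transporter Vmat. The opsins Rh3 and Rh6, arrestin Arr1 and histidine decarboxylase hdc held none. A model outside this group, Ccalc.v2_000586, was matched to both Pfdn6 and the opsin Rh2, and held 4 among 11 windows with 2 to 9 CpGs. Of 8 patterned transcription factors 1 held one, Stat92E of the JAK/STAT pathway, and unc-4, Gsc, foxo and 4 others held none. Beside these counts, 48.4% of placed models with a Drosophila match held one. The groups also differed in how many of their models had any window with 2 to 9 CpGs, which were 17 of 18, 12 of 12, 9 of 10, 5 of 12 and 2 of 8 in the order given. Among such windows the highly methylated share was 16.5%, 17.5%, 19.4%, 20% and 14.3% in that order, beside 12.7% in all models with a match. The groups were short and chosen by hand, and no test was made of them.

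The model with the most highly methylated windows, Ccalc.v2_000470, held 11 among 53 windows with 2 to 9 CpGs. It was matched to ApepP, an aminopeptidase P, and to CG1172. Its windows lay on scaffold78.2 between bases 796601 and 807200 in separate groups, with levels from 64.2% to 86.8%. None of the 11 differed between care and no care without overlap.

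Hel25E, a helicase of messenger RNA splicing and export, followed with 8 of 51 windows (Ccalc.v2_000709, scaffold78.2). They lay in pairs or alone from base 3320001 to base 3340400. The highest, of 9 CpGs at bases 3340001 to 3340200, had 91.1%, 90.8% and 96.2% in care and 90.5%, 88.5% and 90.1% in no care. The next window, at bases 3340201 to 3340400, had 68.4% over all libraries. Levels thus changed by more than 20 points from one window to the next within this gene.

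Other models with many highly methylated windows were Ccalc.v2_000229 (7 of 29), Ccalc.v2_000200 (6 of 19) and CG10341 (6 of 19). With 5 each followed Ccalc.v2_000517 and Ccalc.v2_000518 (the same 5 of 8 windows, counted in both), CG31548 (of 15), garz, an activator of Arf in secretion (of 18), CdsA, an enzyme of phospholipid synthesis (of 19), and CSN6, a subunit of the COP9 signalosome (of 31, an 11th model that the tie at 5 adds to the 10 named by number). The 5 windows of garz had the highest level of these, 86.0%, and those of CdsA the lowest, 64.3%. In CdsA the first 3 windows differed by -7.04 to -10.2 points and the last 2 by 4.64 and 0.877 points, and none was called.

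Expression of the models was measured in separate pools of heads by RNA sequencing, with 26752341 to 31894020 counts per library. Of the 202 models that held a highly methylated window 180 (89.1%) passed the filter on low counts, against 159 of 186 models (85.5%) that held only windows with 2 to 9 CpGs below 60% and 265 of 435 (60.9%) that held no window with 2 to 9 CpGs. Models that hold windows can differ in length from those that do not, and the part of length was not tested. RpL19, with 2 highly methylated windows at 82.3% and 81.8%, had 0 counts in all 6 RNA libraries. Both windows also lay within the overlapping model CG5009, which had 713 ± 15.7 CPM in care and 760 ± 35.4 CPM in no care (SD, n = 3 each), and counts of overlapping models are uncertain. RpL19 was 1 of 14 models with a highly methylated window and no counts.

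Expression of models that held a highly methylated window changed little between care and no care. By edgeR's quasi-likelihood test at an adjusted p of 0.01, 4 of the 180 (2.22%) were called, beside 7.01% of all 10763 genes tested. At the same threshold 10 of the 159 models with only less methylated windows (6.29%) and 26 of the 265 without a window (9.81%) were called. The median size of the log2 fold change was 0.15, 0.22 and 0.40 in these 3 classes. A change of more than 2-fold was found in 2 of the 180 models, 6 of the 159 and 32 of the 265.

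The 4 called models held 1 to 3 highly methylated windows each, beside a median of 2 in models that held any. No called window lay in the placed stretch, so no placed model could hold one. Ccalc.v2_000520, without a matched name, had 21.3, 28.8 and 27.8 CPM (counts scaled to equal library size) in care and 10.6, 11.5 and 11.9 CPM in no care. The groups were well apart, and expression fell by 1.16 on the log2 scale (SE 0.15, adjusted p of edgeR's quasi-likelihood test 0.00263). Its 3 windows, side by side on scaffold78.2 from base 1337201 to base 1337800, overlapped between groups and differed by -3.46, 4.86 and -3.36 points. They also lay within the overlapping model CG5880, and counts of overlapping models are uncertain.

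VhaAC45, an accessory subunit of the proton pump of acidic organelles, was higher in no care. It had 32.1, 29.3 and 31.1 CPM in care and 43.7, 46.7 and 43.4 CPM in no care, a log2 fold change of 0.57 (SE 0.08, adjusted p of edgeR's quasi-likelihood test 0.00320). Its 2 windows differed by -2.24 and 2.08 points. Both also lay within the overlapping model Ccalc.v2_000452, so the counts are uncertain here too.

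PI31, a regulator of the proteasome, fell from 248, 222 and 247 CPM in care to 181, 173 and 173 CPM in no care (log2 fold change -0.40, SE 0.07, adjusted p of edgeR's quasi-likelihood test 0.00820). One of its 2 windows, of 2 CpGs on scaffold39.2 at bases 3469201 to 3469400, had 71.9%, 66.7% and 79.2% in care and 55.6%, 53.2% and 54.3% in no care. These groups did not overlap, but the difference of -16.8 points did not pass the logistic regression (adjusted p 0.144). The adjacent window, of 9 CpGs, differed by -1.59 points with overlapping groups.

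The pantothenate kinase fbl, which starts the synthesis of coenzyme A, fell from 188, 168 and 190 CPM to 141, 135 and 131 CPM (log2 fold change -0.39, SE 0.07, adjusted p of edgeR's quasi-likelihood test 0.00855). Its single highly methylated window, of 4 CpGs on scaffold78.2 at bases 812601 to 812800, differed by 6.73 points in the other direction, with overlapping groups. Vmat, which loads monoamines into vesicles, had 16.8, 15.3 and 15.9 CPM in care and 22.5, 22.6 and 18.6 CPM in no care, a log2 fold change of 0.45 that missed the threshold (adjusted p of the same edgeR test 0.0257). Hel25E had a log2 fold change of -0.14 (adjusted p of that edgeR test 0.253) and ApepP of -0.13 (0.319). The count of called models depended on the fit, with 1 when the replicate number was a block, 15 by DESeq2, 0 without care replicate 3 or without no care replicate 2, 1 without care replicate 1, care replicate 2 or no care replicate 1, and 13 without no care replicate 3. In each of these fits the share of called models was below that of all genes tested, for example 8.33% beside 15.7% by DESeq2 and 7.22% beside 10.5% without no care replicate 3.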

How the data were processed

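The windows, gene groups and genes were chosen with earlier results of these data known. The authors trimmed bisulfite reads with Trimmomatic 0.32, aligned them with Bismark 0.14.5, discarded duplicates and joined both strands of a CpG. They retained CpGs whose methylation exceeded the lambda nonconversion rate in 1 library or more, so the deposited sites lack CpGs unmethylated throughout. The study names version v1.1 of the C. calcarata assembly for its RNA reads, and the version used for bisulfite reads was not given in the sources used here. For each CpG the deposited values are its coverage, a count of reads, and the percent of that coverage methylated or not. Percent times coverage gave whole reads in 100% of values (tolerance 0.01). Of 278132 CpGs, 273427 had 1 to 170 reads in all 6 libraries. Positions are 1-based.

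For RNA, the authors aligned reads with TopHat and counted them per gene model with featureCounts, and the deposited values are raw counts. The gene filter was above 0.18 CPM in over 3 libraries, and TMM scaling was used. How reads matching several models were counted was not given, so counts of overlapping models are uncertain.

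Calls used Benjamini-Hochberg adjustment over all windows or genes. Alternatives were overdispersion, limma on logit levels, a replicate block, changed coverage limits, grid, thresholds and member rules, left-out libraries, and, for RNA, DESeq2, its size factors, the exact test and no filter. Named windows were those with the highest levels and 6 or more CpGs, nearest to 60%, with the smallest p and no overlap, in the longest runs, or with the largest SD. Named genes held the most windows, belonged to a gene group or were called. The authors' own comparisons were not used. Scripts were tested on simulated data. Python 3.11.15 (numpy 2.4.6, scipy 1.17.1, pandas 2.3.3, matplotlib 3.10.9) and R 4.3.3 (edgeR 4.0.16, limma 3.58.1, DESeq2 1.42.0) were used.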

Additional observations from a re-analysis of the deposited data

How the results depend on the processing

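The mean level of highly methylated windows per library was lower in no care under each alternative for which it was computed. The difference was -1.38 to -1.84 points with 1 library left out, and -1.56 to -1.82 points otherwise. The median difference was -1.40 to -1.84 points. The number of windows was 3427 at a level of at least 70% and 2749 with at least 30 reads in every library. Of the 5788 windows at 60% by the care libraries alone, 91.7% were among the 5515, and of the 5397 by the no care libraries alone, 95.9%. By pooled reads, the windows chosen by care alone had 73.3% in care and 70.9% in no care. Those chosen by no care alone had 73.9% in care and 72.7% in no care. Because 1 group chose these windows, their differences are not independent of the choice.

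Called windows, 10 in the report, numbered 0 with overdispersion in each window, 0 with 1 overdispersion for all windows and 0 with limma on logit levels, where 83, 349 and 316 of the 5515 windows had an unadjusted p under 0.05. There were 43 at an adjusted p under 0.05, of which 40 were higher in care, and the share of all windows at that threshold is not given here. With 1 library left out there were 2 to 10 (0.0363% to 0.181%), beside 0.110% to 0.285% of all windows. With the replicate block there were 9 (0.163%), beside 0.300% of all windows, and 8 of the 9 were among the 10. The labels do not say whether replicate numbers pair the samples. Same-numbered bisulfite libraries deviated with correlations of -0.0207 to -0.00230 across windows and RNA libraries with -0.0482 to 0.101 across genes. Differently numbered libraries gave -0.00259 to 0.0193 and -0.0942 to 0.127. With 3 libraries per group these values do not settle whether samples were paired. The direction in the scaffold433.2_split_1 window turned without care replicate 3 (-0.741 points) and without no care replicate 3 (-2.88 points), within a range of -2.88 to 10.4 points over left-out libraries.

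Called gene models with a highly methylated window, 4 in the report, numbered 15 by DESeq2, 9 by edgeR's exact test, 1 with the replicate block, 18 at a threshold of 0.05 and 0 to 13 with 1 library left out, beside 1625, 1420, 371, 1818 and 171 to 1113 of all genes. Their share stayed below that of all genes in each of these fits. The causes were not tested. Depth limits single windows, since 2766 of the 5515 had under 30 reads in at least 1 library.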
